A study of Mus musculus with 16 samples.

Results

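The T-box genes of limb and heart are 7 genes, *Tbx2*, *Tbx3*, *Tbx4*, *Tbx5*, *Tbx15*, *Tbx18* and *Tbx20*, that were chosen by gene symbol from the 26411 genes with counts in these libraries. All 7 were found by symbol and all 7 passed the filter on low counts, so each is among the 15679 genes tested. The data are RNA-seq read counts of 16 whole mouse embryos at embryonic day 9.5 (E9.5), 4 of each of 4 genotypes, and they address how loss of the histone acetyltransferase gene *Kat6a* and extra copies of its paralogue *Kat6b*, alone and together, went with transcript levels.

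Wild type embryos (*Kat6a*+/+*Kat6b*+/+) carried neither change. *Kat6a*-/- embryos were homozygous for the null allele with both *Kat6b* alleles intact, *Tg(Kat6b)* embryos carried the *Kat6b* transgene on a *Kat6a*+/+ background, and the double genotype carried the null alleles and the transgene and is written *Kat6a*-/-*Tg(Kat6b)*. All were on a mixed FVB and BALB/c background and none was treated. The *Kat6a* null allele lacks an internal stretch of exons and still gives reads from the rest of the gene, so counts over the whole gene are no check of it. *Tg(Kat6b)* is a bacterial artificial chromosome transgene from 1 founder line that carries *Kat6b*, and it leaves both endogenous *Kat6b* alleles in place. Every library is 1 whole embryo, in which limb and heart are a small share of the cells, so fewer cells that express a gene and less RNA of it per cell cannot be told apart.

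T-box proteins are transcription factors that bind DNA through a shared T domain. *Tbx5* is needed to start the forelimb bud and to build the atria, the left ventricle and the septum of the heart. *Tbx4* acts in the hindlimb bud and the allantois. *Tbx2* and *Tbx3* encode mostly repressors that keep parts of the heart tube, such as the atrioventricular canal and the conduction system, from becoming working chamber muscle, and that pattern the limb margins. *Tbx20* keeps chamber muscle growing, *Tbx18* marks the epicardium, the inflow region of the heart and the front part of each somite, and *Tbx15* is expressed in limb, head and body wall mesenchyme. *Tbx2* with *Tbx4*, and *Tbx3* with *Tbx5*, are neighbouring gene pairs left by an ancient duplication.

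The libraries held 14407277 to 45665680 reads assigned to genes, and the members' raw counts ran from 20 (*Tbx15*) to 1779 (*Tbx20*) per embryo, so *Tbx15* has the largest counting error. *Kat6b* checked the transgene: its level was 46.2 ± 2.45 CPM (read counts scaled to library size; SD, n = 4) in wild type, 49.1 ± 2.03 in *Kat6a*-/-, 192 ± 29.7 in *Tg(Kat6b)* and 197 ± 4.92 in *Kat6a*-/-*Tg(Kat6b)*. The 4 wild type embryos come 1 each from litters 801 and 803, which also gave the 4 *Kat6a*-/- embryos, and litters 2597 and 2598, which also gave the 4 *Tg(Kat6b)* embryos, while all *Kat6a*-/-*Tg(Kat6b)* embryos come from litters 483 and 498, which gave no other genotype. In every comparison of *Kat6a*-/-*Tg(Kat6b)*, genotype and litter therefore cannot be told apart. The defining markers of heart muscle (15 of 15) and of limb mesenchyme (7 of 7) were detected in every genotype with none at 0.

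In wild type embryos the repressor genes were the most abundant members. As RPKM, the CPM divided by the gene's listed length in kilobases, *Tbx2* stood at 11.0 ± 1.16 (SD, n = 4) and *Tbx3* at 7.52, and the ranges of these did not overlap each other or any other member. *Tbx18* (4.50 RPKM), *Tbx5* (4.39 RPKM) and *Tbx20* (4.17 RPKM) followed with overlapping ranges, and their order is not set beyond the spread. *Tbx4* (2.23 RPKM) and *Tbx15* (1.37 RPKM) were lowest, with overlapping ranges, although *Tbx4* was above *Tbx15* in 4 of 4 embryos. The order of the means changed in the middle only. In wild type *Tbx5* lay above *Tbx20* in only 1 of 4 embryos, and *Tbx18* above *Tbx5* in 2 of 4. In *Kat6a*-/- embryos *Tbx5* (3.08 RPKM) lay below *Tbx20* (3.79 RPKM) in 4 of 4 embryos. In *Kat6a*-/-*Tg(Kat6b)* embryos *Tbx20* (5.51 RPKM) lay above *Tbx5* (4.95 RPKM), which lay above *Tbx18* (3.78 RPKM), each in 4 of 4 embryos.

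In the GRCm39 genome with the GENCODE annotation, *Tbx2* (chromosome 11, 85723377 to 85734115, plus strand) and *Tbx4* (chromosome 11, 85776887 to 85806923, plus strand) are 42771 bases apart with no protein-coding gene between them. *Tbx3* (chromosome 5, 119806298 to 119822797, plus strand) and *Tbx5* (chromosome 5, 119970733 to 120023284, plus strand) are 147935 bases apart, also with none between. *Tbx15* lies on chromosome 3 (99147697 to 99294185, plus strand), and *Tbx18* (87584851 to 87613338) and *Tbx20* (24629434 to 24685599) lie far apart on the minus strand of chromosome 9. The strand setting of the counting is not given in the sources used here. Without it, reads of genes on the opposite strand cannot be told apart where exons overlap, which is 21.0% of the exon bases of *Tbx18*, 18.3% of *Tbx3*, 13.0% of *Tbx2*, 6.27% of *Tbx15* and 4.13% of *Tbx5*, and none of *Tbx4* and *Tbx20*.

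RefSeq promoter sequence was at hand for 3 members, *Tbx4*, *Tbx18* and *Tbx20*, and not used here for *Tbx2*, *Tbx3*, *Tbx5* and *Tbx15*. The 250 bases before each annotated start are shown because *Tbx4* and *Tbx20* were 2 of the 3 members that rose when the transgene was added to the null, while *Tbx18* did not. Coordinates are those of RefSeq on the GRCm38.p6 build, each sequence is written 5′ to 3′ on the strand of its gene, and capitals mark matches to 4 short motifs searched on both strands: the GC box with the letters GGGCGG, the TATA box with the letters TATAAA, the CCAAT box and the T-box core with the letters AGGTGT. The motifs did not overlap each other in these windows.
Tbx4 (chr11:85896515-85896764, plus strand): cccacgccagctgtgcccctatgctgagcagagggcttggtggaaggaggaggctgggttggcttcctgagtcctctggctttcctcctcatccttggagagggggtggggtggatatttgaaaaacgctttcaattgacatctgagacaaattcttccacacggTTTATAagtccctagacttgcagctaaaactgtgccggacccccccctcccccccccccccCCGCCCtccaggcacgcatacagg
Tbx20 (chr9:24774304-24774553, minus strand): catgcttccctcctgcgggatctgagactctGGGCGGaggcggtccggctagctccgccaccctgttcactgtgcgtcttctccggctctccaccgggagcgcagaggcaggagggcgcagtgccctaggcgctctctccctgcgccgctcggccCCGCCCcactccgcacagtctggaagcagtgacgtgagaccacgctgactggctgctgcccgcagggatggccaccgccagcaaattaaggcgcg
Tbx18 (chr9:87731261-87731510, minus strand): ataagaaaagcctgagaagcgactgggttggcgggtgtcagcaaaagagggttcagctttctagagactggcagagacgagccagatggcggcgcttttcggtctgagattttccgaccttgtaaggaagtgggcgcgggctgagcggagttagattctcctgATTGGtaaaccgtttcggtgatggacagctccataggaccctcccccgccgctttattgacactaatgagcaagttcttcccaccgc
The *Tbx20* window is 68.8% G and C and holds 2 GC boxes, from 219 to 214 and from 95 to 90 bases before the start. The *Tbx4* window (58.4% G and C) holds 1 GC box from 24 to 19 bases before the start and the TATA letters on the opposite strand from 85 to 80. The *Tbx18* window (54.0% G and C) holds no GC box and 1 CCAAT box on the opposite strand from 87 to 83. The median G and C share of all 32851 promoters was 52.4%, and a GC box was found in 32.7% of them, a CCAAT box in 33.8%, the TATA letters in 12.4% and the T-box core, found in none of the 3 windows, in 11.8%. A match is a description of the letters only.

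Loss of *Kat6a* went with a lower fitted level of every member, and with a drop that passed the test in 1 of 7. *Tbx15*, the gene of limb and body wall mesenchyme, fell 1.94-fold, and *Tbx5*, the forelimb and heart chamber gene, had no overlap between the genotypes but did not pass. Across all genes, 1.88% passed in either direction and 0.938% fell, at a false discovery rate (FDR) under 0.05 by edgeR's quasi-likelihood test. The members' log2 fold changes were negative in 7 of 7, with a median of -0.24, against 48.8% negative and a median of 0.00 over all genes tested. An unadjusted p under 0.05 was reached by 4 of 7, all lower (*Tbx2*, *Tbx3*, *Tbx5* and *Tbx15*), against 7.93% of all genes lower at that level. The members were not independent of each other, as described further on, so 7 equal signs are not 7 separate observations.

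**Figure D1:**
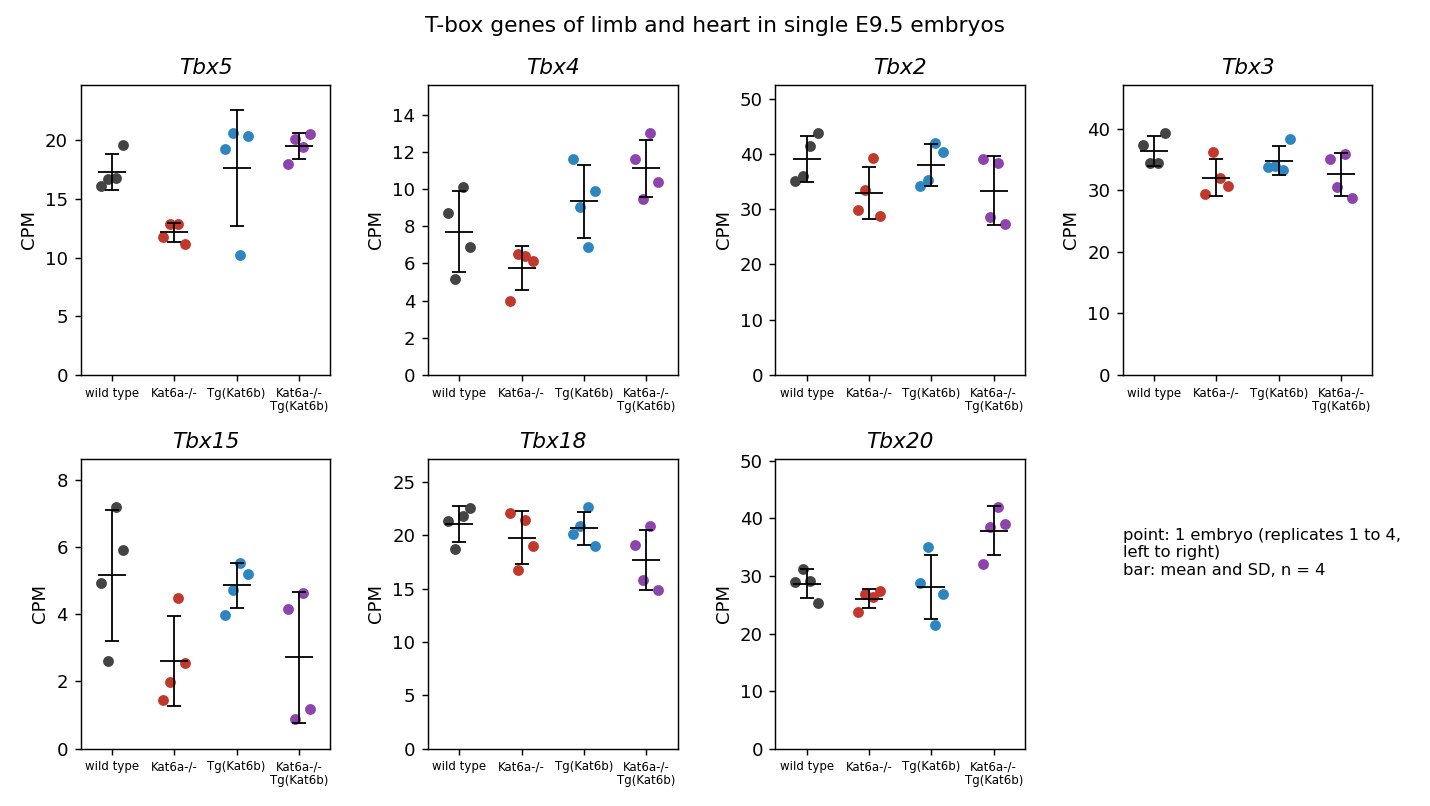
Levels of the 7 genes in CPM (y axis from 0) in each of the 4 genotypes; each point is 1 embryo and the black bars are the mean and SD of 4. *Tbx5* is lower in all 4 *Kat6a*-/- embryos (11.2 to 12.8 CPM) than in any wild type embryo (16.1 to 19.6 CPM), *Tbx20* is highest in *Kat6a*-/-*Tg(Kat6b)* embryos (32.0 to 42.0 CPM), and *Tbx15* in that genotype splits into 2 low and 2 higher embryos.

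Of the members that act in the limb buds, *Tbx5* stood at 16.1, 16.7, 16.7 and 19.6 CPM in wild type replicates 1 to 4. In *Kat6a*-/- replicates 1 to 4 it stood at 11.7, 12.8, 12.8 and 11.2 CPM. The genotypes did not overlap, which held for 1 of the 7 members and for 7.97% of all genes tested. The log2 fold change was -0.51 (SE 0.155), with an FDR of 0.126, and the exact two-sided permutation test of the CPM gave p = 0.0286, the smallest that 4 against 4 embryos allow. *Tbx4* was 8.71, 5.14, 10.1 and 6.86 CPM in wild type and 3.98, 6.52, 6.38 and 6.14 CPM in *Kat6a*-/-. The groups overlapped, and the log2 difference of -0.40 (SE 0.202) did not pass (FDR 0.378).

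Whether *Tbx5* was called varied between fits, and 1 fit that called it left out a *Tg(Kat6b)* embryo, which is in neither genotype compared. Replicate 3 of *Tg(Kat6b)* held 10.2 CPM of *Tbx5* where its 3 fellow embryos held 19.2 to 20.6. Its part in the spread that the fit shares over all genotypes was not tested. Without replicate 3 the log2 fold change of *Tbx5* in *Kat6a*-/- was again -0.51, with an FDR of 0.00042. Fitted on the wild type and *Kat6a*-/- embryos alone it was -0.49 with an FDR of 0.00682, and DESeq2 over all 16 embryos gave an FDR of 0.0148. Of 12 alternative settings only these 2 called *Tbx5*, and of 16 fits that each left out 1 embryo only 1 did. With no surrogate variable the FDR was 0.174, and with 1 it was 0.123.

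Of the repressors, *Tbx2* was 35.2, 36.0, 41.4 and 43.7 CPM in wild type and 29.8, 33.5, 39.3 and 28.8 CPM in *Kat6a*-/-. *Tbx3* was 37.4, 34.4, 34.5 and 39.3 CPM in wild type and 29.4, 36.3, 32.0 and 30.6 CPM in *Kat6a*-/-. In each gene 1 *Kat6a*-/- embryo, replicate 3 for *Tbx2* and replicate 2 for *Tbx3*, reached into the wild type range and the other 3 lay below it. Their log2 fold changes were small, -0.24 for *Tbx2* (95% interval -0.39 to -0.079, FDR 0.121) and -0.17 for *Tbx3* (-0.32 to -0.019, FDR 0.259). *Tbx20*, which sustains chamber muscle, had means of 28.7 ± 2.50 and 26.1 ± 1.63 CPM (SD, n = 4 each), a log2 difference of -0.14 with an FDR of 0.636.

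Of the mesenchymal genes, *Tbx15* was 4.92, 2.60, 7.19 and 5.90 CPM in wild type and 1.44, 1.98, 4.49 and 2.54 CPM in *Kat6a*-/-. Its groups overlapped, since wild type replicate 2 and *Kat6a*-/- replicate 3 lay inside the other genotype's range, and the exact permutation test of the CPM gave p = 0.0571. The fitted log2 fold change was -0.96 (SE 0.175, FDR 0.00494). This call rested on the 2 surrogate variables, which are patterns of variation other than genotype estimated from all genes and taken out in the fit: within genotypes the log2 CPM of *Tbx15* had r = 0.82 with the second of them over 16 embryos. With no surrogate variable the log2 fold change was -1.02 with an FDR of 0.406, and with 1 it was -1.07 with an FDR of 0.361. The first surrogate variable was negative in every male embryo (-0.28 to -0.22) and positive in every female embryo (0.18 to 0.30). *Tbx18* was 21.1 ± 1.68 CPM in wild type and 19.8 ± 2.45 CPM in *Kat6a*-/- (SD, n = 4 each), and its interval of -0.27 to 0.089 on the log2 scale includes 0 (FDR 0.664).

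Of the 2 litters that held both genotypes, *Tbx5* was lower in *Kat6a*-/- embryos in both, and the mean of *Tbx15* in litter 801 only. In litter 801 *Tbx5* was 16.1 CPM in the wild type embryo and 11.7 and 12.8 CPM in the *Kat6a*-/- pair, and in litter 803 it was 16.7 CPM against 12.8 and 11.2 CPM, so 4 of 4 *Kat6a*-/- embryos lay below their wild type littermate. *Tbx3* and *Tbx20* were also below in 4 of 4, by log2 differences of 0.20 or less for *Tbx3* and of 0.22 or less for *Tbx20*. The share of all genes below in 4 of 4 was not counted. *Tbx3* and *Tbx15* likewise were below the wild type littermate in 4 of 4 *Tg(Kat6b)* embryos, a comparison in which no member passed. *Tbx15* was 4.92 CPM in the wild type embryo of litter 801 and 1.71 on average in the *Kat6a*-/- pair. In litter 803 it was 2.60 CPM in the wild type embryo and 4.49 and 2.54 CPM (3.51 on average) in the *Kat6a*-/- pair. For *Tbx15*, 3 of 4 *Kat6a*-/- embryos thus lay below their wild type littermate. In litter 801 the wild type embryo was male and both *Kat6a*-/- embryos were female, while all 3 embryos of litter 803 were male, so in litter 801 genotype and sex cannot be told apart. *Tbx4* likewise was lower in litter 801 (8.71 against 5.25 CPM) and higher in litter 803 (5.14 against 6.26 CPM). With 1 wild type embryo a litter these are values and no test, and with litter as a block no member passed (*Tbx5* FDR 0.727, *Tbx15* FDR 0.761).

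**Figure D2:**
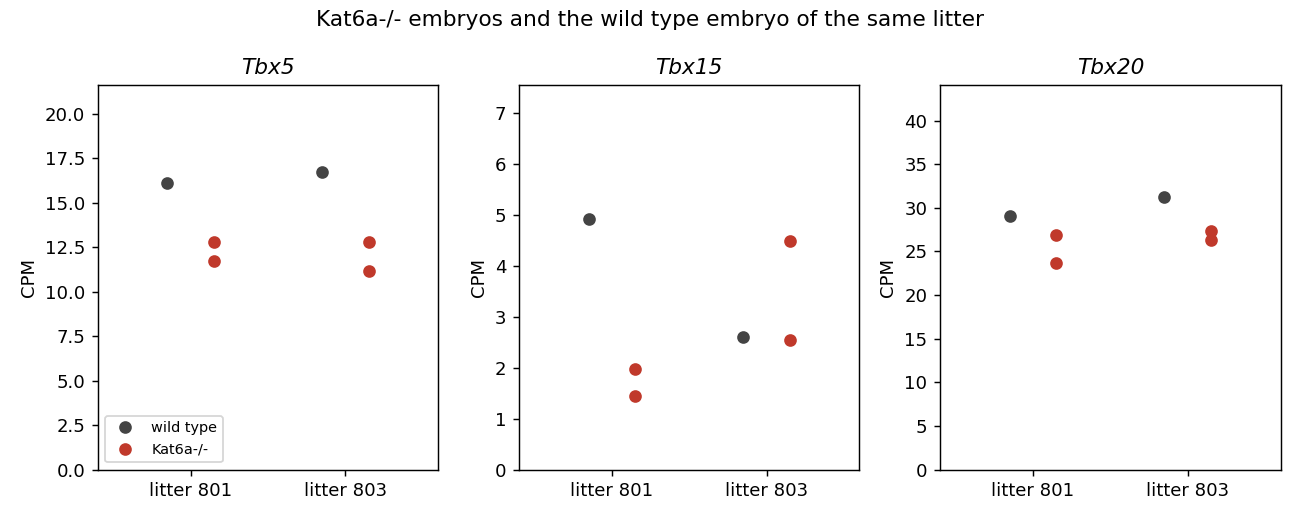
CPM of *Tbx5*, *Tbx15* and *Tbx20* (y axes from 0) in the wild type embryo (dark grey, 1 a litter) and the *Kat6a*-/- embryos (red, 2 a litter) of litters 801 and 803. *Tbx5* and *Tbx20* are lower in each *Kat6a*-/- embryo than in its wild type littermate, and *Tbx15* is so in litter 801 only, with 1 *Kat6a*-/- embryo of litter 803 at 4.49 CPM above the wild type value of 2.60 CPM.

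Adding the transgene to the null genotype went with higher levels of *Tbx4*, *Tbx5* and *Tbx20*. *Tbx4* rose 2.03-fold, *Tbx5* 1.58-fold and *Tbx20* 1.40-fold in *Kat6a*-/-*Tg(Kat6b)* against *Kat6a*-/- embryos, so 3 of 7 members passed, where 7.14% of all genes passed and 3.39% rose. *Tbx2*, *Tbx3*, *Tbx15* and *Tbx18* did not pass. The same 3 members were the ones whose genotypes did not overlap, where 15.2% of all genes did not. The members' median log2 fold change was 0.39 against 0.00 over all genes. That median is the value of *Tbx15*, which did not pass (FDR 0.213) and was 0.029 with no surrogate variable.

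*Tbx4* was 11.6, 9.47, 13.0 and 10.4 CPM in *Kat6a*-/-*Tg(Kat6b)* replicates 1 to 4, each above the highest *Kat6a*-/- embryo at 6.52 CPM. Its log2 fold change was 1.02 (SE 0.20, FDR 0.00924), and it passed without any single embryo. *Tbx5* was 18.0, 20.1, 19.4 and 20.5 CPM against a highest *Kat6a*-/- embryo of 12.8 CPM. All 4 *Kat6a*-/-*Tg(Kat6b)* embryos thus lay above all 4 *Kat6a*-/- embryos, with a log2 fold change of 0.66 (SE 0.157, FDR 0.0245). *Tbx20* was 32.0, 38.5, 42.0 and 39.1 CPM against *Kat6a*-/- values of 23.7, 26.9, 26.4 and 27.3 CPM. It too was higher in 4 of 4 embryos, with a log2 fold change of 0.48 (SE 0.125, FDR 0.0347). The exact permutation test of the CPM gave p = 0.0286 for each of the 3.

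The *Tbx5* and *Tbx20* calls lay near the threshold. *Tbx5* had an FDR of 0.0797, 0.0613 or 0.0505 without *Kat6a*-/- replicate 1, 2 or 4 and of 0.0519, 0.0685 or 0.0505 without *Kat6a*-/-*Tg(Kat6b)* replicate 1, 3 or 4, with log2 fold changes of 0.60 to 0.68. *Tbx20* had an FDR of 0.0872 or 0.0717 without *Kat6a*-/- replicate 1 or 2, of 0.0566, 0.0864 or 0.0733 without *Kat6a*-/-*Tg(Kat6b)* replicate 2, 3 or 4 and of 0.0523 without wild type replicate 3, with log2 fold changes of 0.38 to 0.51. With at least 10 counts required in every embryo, which brought 4 surrogate variables, none of the 3 passed (*Tbx4* FDR 0.0916, *Tbx5* 0.344, *Tbx20* 0.472). With no filter, which also brought 4 surrogate variables, *Tbx20* did not pass (log2 fold change 0.52, FDR 0.0688).

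**Figure D3:**
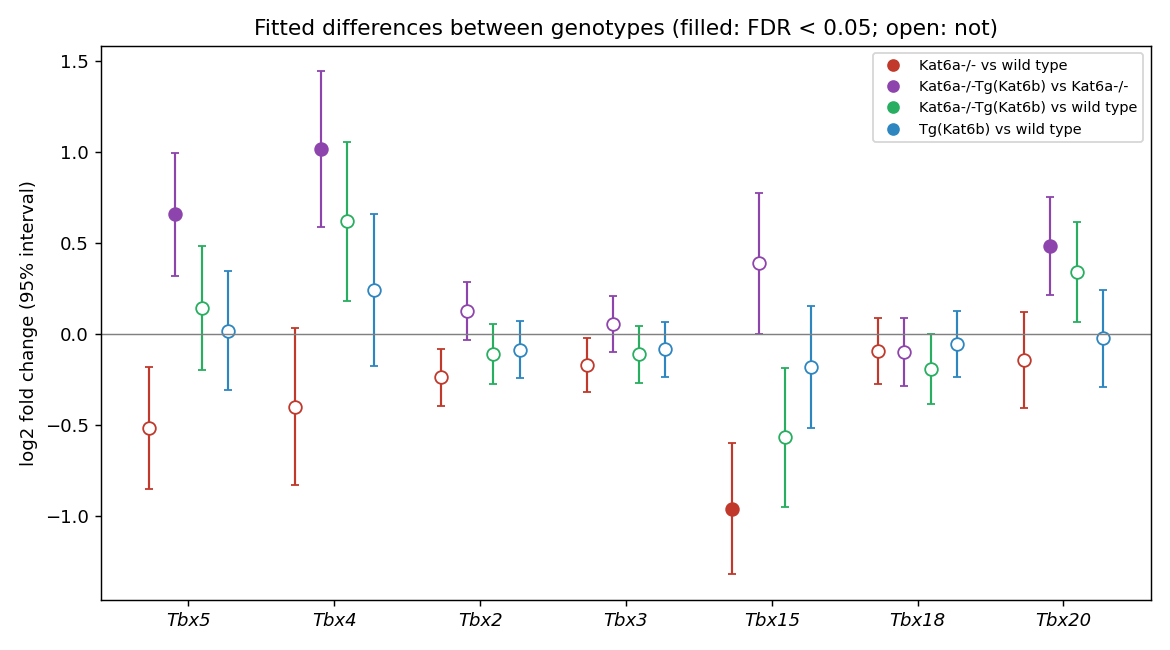
Log2 fold changes of the 7 genes (y axis) with 95% intervals for 4 comparisons, in colour; filled circles have an FDR under 0.05 and open circles do not. *Tbx15* in *Kat6a*-/- (-0.96) and *Tbx4*, *Tbx5* and *Tbx20* in *Kat6a*-/-*Tg(Kat6b)* against *Kat6a*-/- (1.02, 0.66 and 0.48) are filled, and no circle is filled for *Tg(Kat6b)* or *Kat6a*-/-*Tg(Kat6b)* against wild type.

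The other 4 members showed 2 sets of levels in *Kat6a*-/-*Tg(Kat6b)* embryos. *Tbx15* was 4.17 and 4.62 CPM in replicates 1 and 3 and 0.889 and 1.19 CPM in replicates 2 and 4. *Tbx2* was 39.0 and 38.4 CPM in replicates 1 and 3 against 28.6 and 27.3 CPM in replicates 2 and 4, and *Tbx18* was 19.1 and 20.9 against 15.8 and 14.9 CPM. Replicates 2 and 4 were thus the lower 2 embryos in each of these genes, and in *Tbx3* (30.6 and 28.8 CPM against 35.2 and 35.9). They stood at -0.41 and -0.33 on the second surrogate variable, against 0.017 and 0.034 for replicates 1 and 3. Replicates 2 and 4 are the 2 females of the genotype, and they come from different litters (483 and 498). In wild type the order was the other way, with a mean *Tbx15* of 6.55 CPM in the females and 3.76 in the males. Their means of *Tbx2* were 42.6 and 35.6 CPM. The wild type females come from litters 2597 and 2598 and the males from 801 and 803, so sex and litter cannot be told apart. In *Kat6a*-/- the females, all of litter 801, had a mean *Tbx15* of 1.71 CPM and the males, all of litter 803, of 3.51 CPM. For *Tbx2* these means were 31.7 and 34.1 CPM. In *Tg(Kat6b)* females and males they were 4.96 and 4.75 CPM for *Tbx15* and 37.7 and 38.1 CPM for *Tbx2*. In an alternative fit with sex in place of the surrogate variables, the members called in *Kat6a*-/-*Tg(Kat6b)* against *Kat6a*-/- numbered 3 as well, and the log2 difference of *Tbx15* was -0.0041 (FDR 0.997). The first surrogate variable separates the sexes, so the main fit also takes out sex and this fit is no separate check on it. Whether sex acts differently between genotypes was not tested. For *Tbx15* the mean CPM of the genotype, 2.72 ± 1.95, was close to that of *Kat6a*-/-, 2.61 ± 1.33 (SD, n = 4 each), and the fitted log2 difference was 0.39 with surrogate variables (SE 0.187, FDR 0.213) and -0.011 with only 1.

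Against wild type, *Kat6a*-/-*Tg(Kat6b)* embryos had no member past the threshold by edgeR, where 0.67% of all genes passed. An unadjusted p under 0.05 was reached by 3 of 7, against 12.7% of all genes: *Tbx4* (log2 fold change 0.62, SE 0.204, FDR 0.214) and *Tbx20* (0.34, SE 0.127, FDR 0.278) were higher and *Tbx15* (-0.57, SE 0.183, FDR 0.181) was lower. *Tbx20* was the 1 member without overlap, at 32.0 to 42.0 CPM against 25.3 to 31.3 CPM in wild type, where 7.1% of all genes did not overlap, and the exact permutation test gave p = 0.0286. *Tbx5*, at 19.5 ± 1.10 CPM against 17.3 ± 1.55 CPM (SD, n = 4 each), differed by 0.15 on the log2 scale with a 95% interval of -0.19 to 0.49. DESeq2 called *Tbx4* (FDR 0.0354), and the fit on these 2 genotypes alone called *Tbx4* (FDR 0.0468) and *Tbx20* (FDR 0.0481). Leaving out *Tg(Kat6b)* replicate 1 or 3 gave *Tbx4* an FDR of 0.0380 or 0.0397.

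The transgene on its own went with no called member, and by edgeR 0.14% of all genes passed between *Tg(Kat6b)* and wild type. No member had an unadjusted p under 0.05 and none was called by DESeq2, and the widest interval was that of *Tbx4*, from -0.17 to 0.66 on the log2 scale. The means were close for *Tbx3* (34.8 against 36.4 CPM), *Tbx18* (20.6 against 21.1 CPM) and *Tbx20* (28.1 against 28.7 CPM), all with overlapping groups, as for the other 4 members, where 4% of all genes did not overlap. For *Tbx5* the mean rested on replicate 3: it was 17.6 ± 4.96 CPM with that embryo (SD, n = 4) and 20.1 ± 0.725 CPM without it (SD, n = 3).

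Between the 2 genotypes that carry the transgene, *Kat6a*-/-*Tg(Kat6b)* and *Tg(Kat6b)*, no member passed by edgeR, where 3.41% of all genes did, and none was without overlap, where 10.5% were. *Tbx20* came nearest, with a log2 fold change of 0.36 (SE 0.131, FDR 0.150), and passed by DESeq2 (FDR 0.0347) and without *Tg(Kat6b)* replicate 2 (0.49, FDR 0.0121). Whether loss of *Kat6a* went with a different change in the presence of the transgene was tested as an interaction. No member passed it by edgeR, where 0.153% of all genes did, and 4 members had an unadjusted p under 0.05, all positive: *Tbx4* (0.78, SE 0.281, FDR 0.239), *Tbx5* (0.64, SE 0.222, FDR 0.224), *Tbx15* (0.57, SE 0.249, FDR 0.302) and *Tbx20* (0.51, SE 0.179, FDR 0.233). At that level 7.47% of all genes were positive. *Tbx5* passed without *Tg(Kat6b)* replicate 3 (0.51, FDR 0.0375) and *Tbx20* without *Tg(Kat6b)* replicate 2 (0.64, FDR 0.0430), and DESeq2 gave no interaction for any member. These comparisons share embryos with those above.

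Marker levels of heart muscle and limb stand beside these differences. The summed level of 15 heart muscle genes ran from 1271 to 1341 CPM in wild type, 1143 to 1490 in *Kat6a*-/-, 869 to 1456 in *Tg(Kat6b)* and 1275 to 1437 in *Kat6a*-/-*Tg(Kat6b)*, and none of the 15 genes passed in any comparison. The mean sum was 1306 ± 30.7 CPM in wild type and 1370 ± 159 CPM in *Kat6a*-/- (SD, n = 4 each). Per 1000 CPM of those markers, *Tbx5* was 13.2 ± 1.09 CPM in wild type and 8.95 ± 1.12 CPM in *Kat6a*-/- (SD, n = 4 each), and the ranges of 12.5 to 14.8 and 7.61 to 10.3 did not overlap. On the same scale *Tbx20* was 22.0 in wild type, 19.1 in *Kat6a*-/-, 23.5 in *Tg(Kat6b)* and 27.7 in *Kat6a*-/-*Tg(Kat6b)*, where the last ranged from 25.1 to 31.7 and the wild type from 19.2 to 23.3. The *Tg(Kat6b)* embryo with the low *Tbx5*, replicate 3, also had the lowest heart muscle sum of all 16 embryos (869 CPM) and the lowest *Tbx20* (21.5 CPM).

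**Figure D4:**
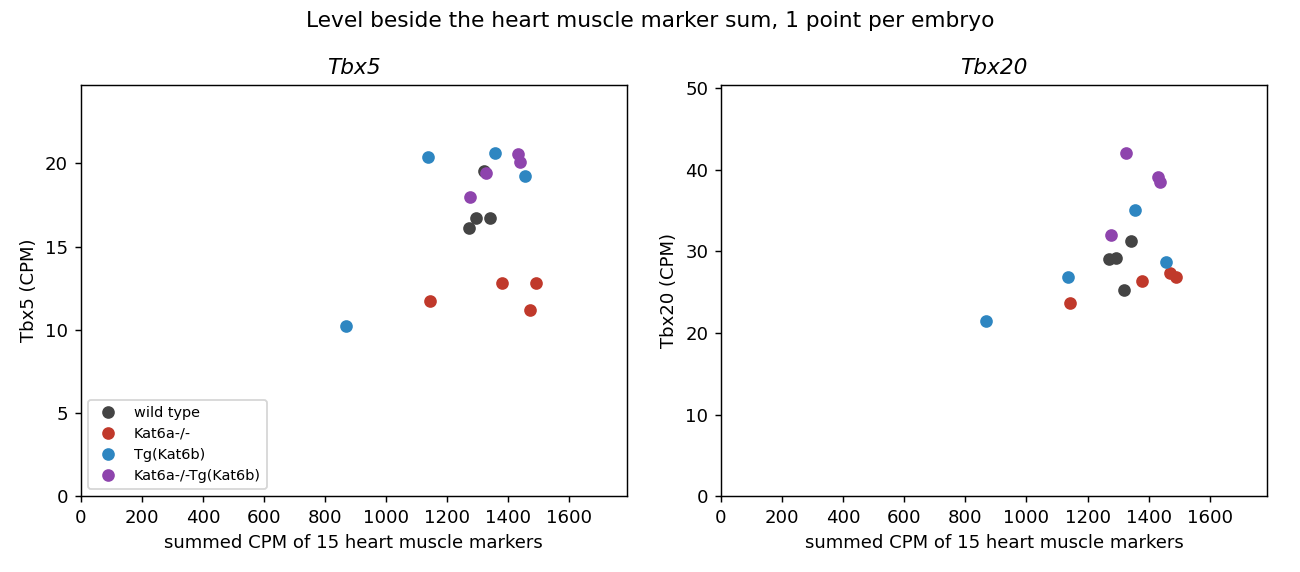
CPM of *Tbx5* (left) and *Tbx20* (right) against the summed CPM of 15 heart muscle markers, 1 point per embryo, coloured by genotype, all axes from 0. *Kat6a*-/- embryos lie low in *Tbx5* (11.2 to 12.8 CPM) at marker sums that reach 1490 CPM, and *Tg(Kat6b)* replicate 3 lies apart at 869 CPM.

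The sum of 7 limb mesenchyme markers was 429 to 498 CPM in wild type, 393 to 441 in *Kat6a*-/-, 432 to 480 in *Tg(Kat6b)* and 420 to 465 in *Kat6a*-/-*Tg(Kat6b)*, and the mean was lowest in *Kat6a*-/- (412 ± 23.0 CPM against 467 ± 30.6 CPM in wild type, SD, n = 4 each), with ranges that overlapped between these genotypes. All 7 had a negative log2 fold change in *Kat6a*-/- against wild type with a median of -0.16, and none passed. In *Kat6a*-/-*Tg(Kat6b)* against *Kat6a*-/- embryos 2 of 7 rose, *Pitx1* and *Msx1*. Their part in the differences of *Tbx4*, *Tbx5* and *Tbx15* was not tested. Of the 35 primitive erythroid, endothelial, neural tube and somite markers, all detected, 1 rose (*Cldn5*) and 1 fell (*Uncx*) in *Kat6a*-/- against wild type. Where *Tbx4*, *Tbx5* and *Tbx20* rose, in *Kat6a*-/-*Tg(Kat6b)* against *Kat6a*-/- embryos, 1 endothelial marker rose (*Tek*, log2 difference 0.30) and 3 markers fell, the endothelial *Cldn5* (-0.31), the neural *Nes* (-0.19) and the somite gene *Meox1* (-0.21). Against *Tg(Kat6b)* the endothelial *Cdh5* and *Tie1* rose and the neural *Sox1* and *Sox2* and the somite genes *Meox1* and *Uncx* fell. *Meox1* was also lower in *Kat6a*-/-*Tg(Kat6b)* than in wild type, and *Nes* was lower in *Tg(Kat6b)* than in wild type. Over all genes tested, 1.88% passed in *Kat6a*-/- and 0.14% in *Tg(Kat6b)* against wild type. In *Kat6a*-/-*Tg(Kat6b)* the share was 7.14% against *Kat6a*-/- (3.39% rose), 3.41% against *Tg(Kat6b)* and 0.67% against wild type. The part of these cell types in the members' differences was not tested.

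Over the 16 embryos the log2 CPM of the members, pooled over genotypes whose means differ, varied in 2 sets. *Tbx2*, *Tbx3*, *Tbx15* and *Tbx18* varied together, most closely *Tbx2* with *Tbx15* (Pearson r = 0.88, and 0.84 within genotypes) and least *Tbx3* with *Tbx18* (r = 0.36). *Tbx4*, *Tbx5* and *Tbx20* formed the other set, with r = 0.70 for *Tbx5* with *Tbx20*, 0.69 for *Tbx4* with *Tbx5* and 0.62 for *Tbx4* with *Tbx20*. Between the sets the values ran from -0.54 (*Tbx18* with *Tbx20*) to 0.29 (*Tbx3* with *Tbx5*). The genomic neighbours *Tbx2* and *Tbx4* had r = 0.16 and *Tbx3* and *Tbx5* r = 0.29, both below every pooled value within a set. Within genotypes the split was less clear, since *Tbx4* had r = 0.56 with *Tbx15* and 0.42 with *Tbx3*, against 0.35 with *Tbx5* and 0.31 with *Tbx20*. There *Tbx2* with *Tbx4* (0.24) and *Tbx3* with *Tbx5* (0.23) were also above *Tbx3* with *Tbx18* (0.17). With the second surrogate variable, r within genotypes was 0.82 for *Tbx15*, 0.77 for *Tbx2*, 0.54 for *Tbx18* and 0.53 for *Tbx3*. It was 0.46 for *Tbx4*, -0.061 for *Tbx5* and -0.32 for *Tbx20*. What that variable stands for was not tested. The ratio of *Tbx4* to *Tbx2* in RPKM was 0.204 ± 0.058 in wild type and 0.347 ± 0.035 in *Kat6a*-/-*Tg(Kat6b)*, and that of *Tbx5* to *Tbx3* was 0.583 ± 0.037 in wild type, 0.466 ± 0.029 in *Kat6a*-/- and 0.743 ± 0.117 in *Kat6a*-/-*Tg(Kat6b)* (SD, n = 4 each). These correlations are descriptions over embryos that share genotypes and litters.

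**Figure D5:**
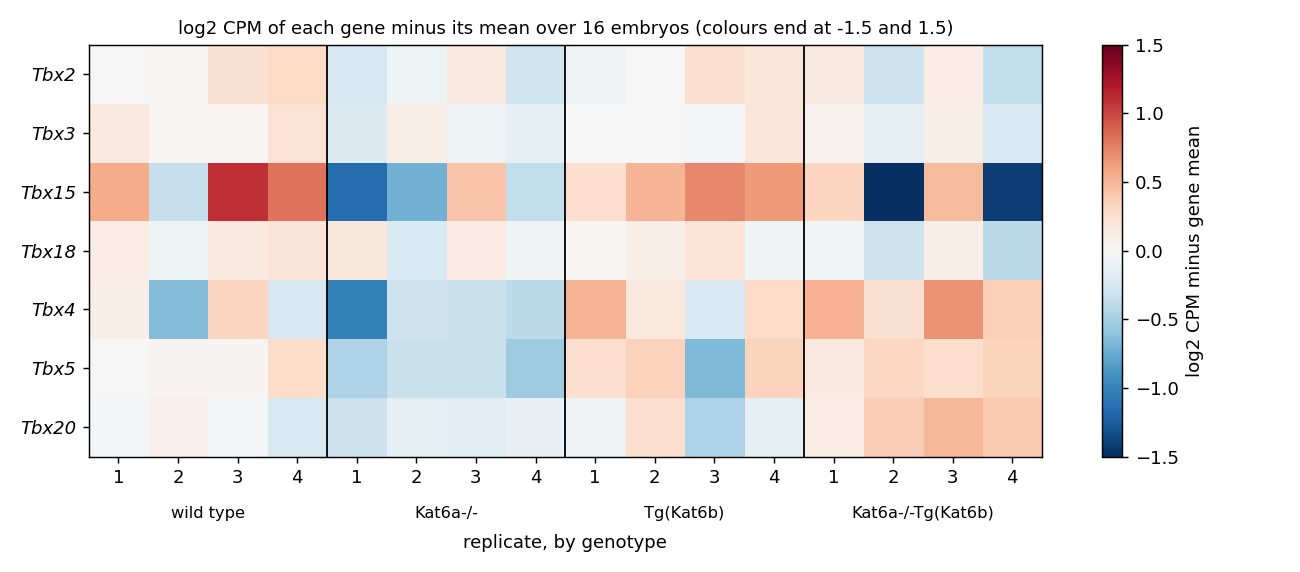
Log2 CPM of each gene minus its own mean over 16 embryos, red above and blue below the mean, with genes in rows and embryos in columns grouped by genotype. *Tbx2*, *Tbx3*, *Tbx15* and *Tbx18* are low together in *Kat6a*-/-*Tg(Kat6b)* replicates 2 and 4, where *Tbx4*, *Tbx5* and *Tbx20* are above their means.

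By the highest Pearson r of log2 CPM over 16 embryos among 14036 genes, *Tbx5* was most like *Hoxd9* (r = 0.93), *Gata6* and *Pitx1* (0.90 each), and *Tbx4* most like *Arf4* (0.88), *Tent2* (0.87) and *Hoxc9* (0.86). *Tbx20* was most like *Mtpn*, *Podxl* and *Emp2* (0.86 each). *Tbx15* was most like *Cpt1a* (0.94), *9330159F19Rik* (0.94) and *Tle5* (0.93), and *Tbx2* most like *Psd2*, *Hoxd12* and *Clip2* (0.90 each). *Tbx18* was most like *Fam131a* (0.91), *Brsk2* and *Mras* (0.89 each), and *Tbx3* most like *Zkscan3* (0.84), *Lhx8* (0.83) and *Lmx1b* (0.82). Each is the largest of that many values and is given as a description.

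The rest of the T-box family and the genes that work with the members in limb and heart were taken from lists. Of 5 other T-box genes tested, *Tbx1*, the gene of the pharyngeal arches and the outflow tract, fell in *Kat6a*-/- embryos (log2 fold change -0.65, SE 0.0767, FDR 4.29e-05) and rose in *Kat6a*-/-*Tg(Kat6b)* against *Kat6a*-/- (0.36, SE 0.0792, FDR 0.00938), while it was lower in *Kat6a*-/-*Tg(Kat6b)* than in *Tg(Kat6b)* (-0.52, SE 0.0807, FDR 0.00197). *T*, the Brachyury gene of the tail bud, was higher in *Tg(Kat6b)* than in wild type (0.59, SE 0.114, FDR 0.0423). The other 3 passed in no comparison. *Tbx1* was 20.1 ± 0.638 CPM in wild type and 13.0 ± 1.44 CPM in *Kat6a*-/- (SD, n = 4 each).

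Of 26 limb bud genes, 22 had negative log2 fold changes in *Kat6a*-/- embryos with a median of -0.14, and 2 fell: *Lhx2* (-0.34, SE 0.0522, FDR 0.00123) and *Wnt5a* (-0.32, SE 0.0529, FDR 0.00216), which drives limb outgrowth. In *Kat6a*-/-*Tg(Kat6b)* against *Kat6a*-/- embryos 22 of 26 were positive with a median of 0.14 and 5 rose. They were *Pitx1*, the hindlimb regulator that acts before *Tbx4* (0.91, SE 0.149, FDR 0.00468), *Wnt5a* (0.43, SE 0.0547, FDR 9.58e-05), *Msx2* (0.41), *Msx1* (0.23) and *Meis1* (0.14). None passed in the other 3 comparisons between pairs of genotypes. Over all genes tested, 48.8% were negative and 0.938% fell in *Kat6a*-/- against wild type. In *Kat6a*-/-*Tg(Kat6b)* against *Kat6a*-/-, 51.4% of all genes were negative and 3.39% rose. *Pitx1* stood at 24.0 ± 3.21 CPM in wild type, 16.4 ± 2.62 in *Kat6a*-/- and 31.3 ± 1.85 in *Kat6a*-/-*Tg(Kat6b)* (SD, n = 4 each).

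Of 27 cardiac regulators and T-box targets, 21 were negative in *Kat6a*-/- with a median of -0.16 and 2 fell, *Mycn* (-0.26, SE 0.0426, FDR 0.00192) and *Cited1* (-0.40, SE 0.0983, FDR 0.0392). In *Kat6a*-/-*Tg(Kat6b)* against *Kat6a*-/- embryos 23 of 27 were positive with a median of 0.23 and 4 rose, among them *Hand1* of the left ventricle (1.16, SE 0.228, FDR 0.0151), *Gata6* (0.66, SE 0.145, FDR 0.0191) and *Mycn* (0.17). *Hand1* is also expressed in the lateral mesoderm and extraembryonic tissue. *Mycn* was lower in *Kat6a*-/-*Tg(Kat6b)* than in *Tg(Kat6b)* (-0.19, FDR 0.0278), where 3.41% of all genes passed. The shares of all genes were 48.8% negative and 0.938% lower in *Kat6a*-/- against wild type. They were 51.4% negative and 3.39% higher in *Kat6a*-/-*Tg(Kat6b)* against *Kat6a*-/-.

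Of 11 tested genes of the epicardium and its precursor, where *Tbx18* and *Tbx5* act, 1 fell in *Kat6a*-/- embryos: *Aldh1a2*, which makes retinoic acid (-0.27, SE 0.0426, FDR 0.00140), and it was also lower in *Kat6a*-/-*Tg(Kat6b)* than in wild type (-0.28, SE 0.0448, FDR 0.00444). *Lrrn4* (0.50, FDR 0.00397), *Upk3b* (0.65, FDR 0.00957) and *Bnc1* (0.51, FDR 0.0191), genes of the mesothelium, rose in *Kat6a*-/-*Tg(Kat6b)* against *Kat6a*-/-. *Lrrn4* (0.48, FDR 0.0238) and *Krt19* (0.38, FDR 0.0369) were also higher in *Kat6a*-/-*Tg(Kat6b)* than in wild type. Against *Tg(Kat6b)*, *Lrrn4* (0.55, FDR 0.00744) and *Krt19* (0.33, FDR 0.0383) were higher and *Aldh1a2* lower (-0.28, FDR 0.00306). *Tbx18* itself passed in none of these comparisons. Among all genes tested, 0.938% fell in *Kat6a*-/- against wild type and 3.39% rose in *Kat6a*-/-*Tg(Kat6b)* against *Kat6a*-/-. In *Kat6a*-/-*Tg(Kat6b)*, 0.67% passed against wild type and 3.41% against *Tg(Kat6b)*.

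The protein-coding genes next to the members passed in few comparisons. *Wars2*, 1.19 kilobases before *Tbx15*, was higher in *Kat6a*-/-*Tg(Kat6b)* than in *Tg(Kat6b)* (0.39, SE 0.0702, FDR 0.00565) and passed in no other. *Med13l*, 903 kilobases before *Tbx3*, was lower in *Tg(Kat6b)* than in wild type (-0.27, SE 0.0518, FDR 0.0298) and higher in *Kat6a*-/-*Tg(Kat6b)* than in *Tg(Kat6b)* (0.30, SE 0.0563, FDR 0.00744). *Bcas3*, *Brip1*, *Rbm19*, *Spag17*, *Cep162*, *Nt5e* and *Herpud2* passed in none, and *Dpy19l2* did not pass the filter on low counts.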

How the data were processed

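RNA of 16 whole E9.5 embryos, 4 of each genotype, was sequenced as TruSeq libraries. The authors aligned reads to mm39 with Rsubread and deposited raw counts per gene from featureCounts (versions, annotation and strand setting are not given in the sources used here). Genes passing filterByExpr (minimum count 10, minimum total 15; 15679 genes) were fitted over all embryos in edgeR 4.0.16 (R 4.3.3) with TMM, genotype and 2 surrogate variables (sva 3.50.0), and tested by robust quasi-likelihood with Benjamini-Hochberg adjustment over all genes. CPM used TMM library sizes, RPKM the listed gene lengths, and log2 CPM a prior count of 2. CPM of 4 against 4 embryos was also compared by exact two-sided permutation. P-values measure the spread between these single embryos. The fits were also run on counts simulated without litter, sex or other hidden patterns, which cannot test the surrogate variables. Alternatives used DESeq2 1.42.0, limma-voom (limma 3.58.1), other filters, scalings and covariates, and left out each embryo. The members and gene lists were chosen with earlier results of these data known. All 7 members, list genes with an FDR under 0.05 in any pairwise comparison (at most 6 a list, by smallest FDR), *Kat6b*, nearest protein-coding neighbours and, for each member, the 3 genes of highest correlation (average log2 CPM of at least 0) are named. A list gene that this rule would name is not reported here.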

Additional observations from a re-analysis of the deposited data

Results flagged for a closer look

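In 52 groups of 4 embryos (7 members and 6 marker sums in 4 genotypes), 4 had 1 embryo whose gap to the nearest other, divided by the group's range, was above the critical value for 4 samples. Chance alone gives about 1 in 20 groups. *Tbx5* in *Tg(Kat6b)* was lowest in replicate 3, at 10.2 CPM against 19.2 CPM for the next embryo (gap 0.870 of the range). *Tbx4* in *Kat6a*-/- was lowest in replicate 1, at 3.98 CPM against 6.14 CPM (gap 0.853). *Tbx3* in *Tg(Kat6b)* was highest in replicate 4, at 38.4 CPM against 33.9 CPM (gap 0.877), and that embryo is the only one of its litter in the genotype. The summed somite markers in *Kat6a*-/- were lowest in 1 embryo, at 177 CPM against 188 CPM (gap 0.871).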

How the results depend on the processing

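Over all alternatives, the drop of *Tbx15* in *Kat6a*-/- kept its sign but lost its call with no or 1 surrogate variable, sex as a covariate, the replicate block or litter as a block, so 0 members were called there, and the number called was 2 with DESeq2 or with only the genotypes compared and 1 to 2 when each embryo was left out. In *Kat6a*-/-*Tg(Kat6b)* against *Kat6a*-/- the number called was 0 with at least 10 counts in every embryo and 1 at an FDR under 0.01. It was 1 to 3 when each embryo was left out, and *Tbx20* lost its call with no filter (FDR 0.0688). Against wild type, *Kat6a*-/-*Tg(Kat6b)* had 1 with DESeq2, 2 with only the genotypes compared and 0 to 1 when each embryo was left out. Against *Tg(Kat6b)* it had 1 with DESeq2, no filter or the replicate block and 0 to 1 when each embryo was left out, the interaction 0 to 1, and *Tg(Kat6b)* against wild type 0 throughout. Pairs of member and comparison without overlap were 5 of 35. They were 5 to 9 when each embryo was left out, which can only narrow a range and so could not give fewer than 5.

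Signs turned for values that never passed. In *Tg(Kat6b)* against wild type, *Tbx5* (0.019) became -0.0060 with limma-voom and -0.091 with at least 10 counts, *Tbx20* (-0.022) became 0.010 with litter as a block and 0.029 with only the genotypes compared, and leaving out embryos gave -0.081 to 0.20 for *Tbx5*, -0.27 to 0.092 for *Tbx15* and -0.15 to 0.078 for *Tbx20*. *Tbx15* in *Kat6a*-/-*Tg(Kat6b)* against *Kat6a*-/- (0.39) became -0.011 with 1 surrogate variable, -0.0041 with sex, -0.049 with the replicate block and -0.051 with only the genotypes compared, and its interaction became -0.043 with the replicate block. Leaving out embryos gave -0.17 to 0.020 for *Tbx18* there and -0.11 to 0.096 for its interaction, and -0.12 to 0.023 for *Tbx2*, -0.083 to 0.014 for *Tbx3* and -0.0036 to 0.26 for *Tbx5* in *Kat6a*-/-*Tg(Kat6b)* against *Tg(Kat6b)*. The cause was not tested.

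The number of genes called over all 15679 also moved, from 295 to between 18 and 403 in *Kat6a*-/- against wild type and from 1119 to between 98 and 2384 in *Kat6a*-/-*Tg(Kat6b)* against *Kat6a*-/-. Same-numbered embryos did not deviate together (r from -0.26 to 0.22 in 24 pairs, above 0.1 in 10, own number the best match in 9), so the replicate numbers do not pair the samples. Depth limits *Tbx15* most, with 20 to 161 counts an embryo.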

Other observations

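In some embryos low *Tbx15* went with high *Tbx6*, a T-box gene of the presomitic mesoderm, and in others it did not. These values were chosen after they were seen, with no test. *Tbx6* was 8.31 and 8.81 CPM in *Kat6a*-/-*Tg(Kat6b)* replicates 2 and 4, where *Tbx15* was 0.889 and 1.19 CPM, and 5.35 and 5.06 CPM in replicates 1 and 3, where *Tbx15* was 4.17 and 4.62 CPM. In *Kat6a*-/- the highest *Tbx6* (7.41 CPM, replicate 1) went with the lowest *Tbx15* (1.44 CPM), and in wild type the highest *Tbx6* (6.57 CPM, replicate 2) with the lowest *Tbx15* (2.60 CPM). By contrast, *Tbx15* was low (1.98 and 2.54 CPM) in *Kat6a*-/- replicates 2 and 4, where *Tbx6* was 5.58 and 4.48 CPM. *Tg(Kat6b)* embryos, at 5.73 to 6.57 CPM of *Tbx6* and 3.97 to 5.52 CPM of *Tbx15*, had more *Tbx6* than those *Kat6a*-/- embryos and more *Tbx15*.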
